A study of Mus musculus with 4 samples.

Results

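The genes described here make, move and control cholesterol in mouse oral cancer cells. They were chosen by name, with earlier results of these data known. The 31 genes are cholesterol synthesis enzymes, proteins that carry or store sterols, the SREBP control system, and the LXR receptors with their efflux pumps. Of these, 26 were measured among 19505 named genes, and Acat2, Tm7sf2, Soat1, Srebf1 and Nr1h2 were not analysed here. The 26 comprised 16 synthesis enzymes and 10 other members, and 24 of them had a mean level of at least 5 over the arrays, the exceptions being Nr1h3 and Abcg1.

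RNA was measured on Affymetrix Mouse Clariom S arrays, 1 array for each of 4 lines from tongue tumors that 4-nitroquinoline 1-oxide (4-NQO)/arecoline induced in C57BL/6 (B6) mice. NHRI-HN1 was selected from the parental line M1-2, and NHRI-HN2 from the parental line M2-3, by sphere culture. In that step cells grow as floating clusters in serum-free medium with epidermal growth factor. The collected spheres were afterwards kept in dishes in medium with serum, so sphere-cultured below names a past step. M1-2 and M2-3 came from separate tumors, and the labels give DMEM with fetal bovine serum as the growth medium of all 4 lines. NHRI-HN1 formed tumors in B6 mice and the other lines are the non-tumorigenic ones in the study's grouping, so each group is 1 line, or 3 lines of which NHRI-HN2 and M2-3 share a tumor.

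Cells build cholesterol from acetyl-CoA through mevalonate, farnesyl diphosphate, squalene and lanosterol. The transcription factor SREBP2, encoded by Srebf2, drives the genes of these enzymes. When sterols are scarce, SCAP carries SREBP2 from the endoplasmic reticulum to the Golgi for cleavage, and when sterols are plentiful, INSIG proteins hold the complex back. LXR receptors respond to oxysterols and switch on pumps such as ABCA1 that export cholesterol. In squamous epithelium, cholesterol also enters the barrier lipids that differentiating keratinocytes release.

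All values are deposited expression levels that are taken as log2, and 1 unit need not be an exact doubling of RNA. Array medians lay between 4.53 and 4.75, and the median gene differed by 0 between NHRI-HN1 and M1-2 and by -0.06 between NHRI-HN2 and M2-3. No line had a replicate array, so a difference between 2 arrays has no replicate error, and a gap of at least 1 unit is used below as a rule of size without a test. NHRI-HN1 with M1-2 is called the first pair and NHRI-HN2 with M2-3 the second. In bulk RNA, fewer expressing cells and less RNA per cell cannot be told apart.

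The 16 synthesis enzymes were lower in NHRI-HN1 than in M1-2 without exception, with a median difference of -2.99 and a range of -6.06 to -1.46 (1 array each). Of all genes, 12.2% lay at least 1 unit lower in NHRI-HN1, and 19.9% of the 9826 genes with a mean of at least 5 did so. The 10 other members had a median difference of -0.05 in the same pair, with 1 of them at least 1 unit lower and 2 at least 1 unit higher, as 12.1% of all genes were. Over all 26 measured members the median was -2.41. The enzymes were also lower in NHRI-HN2 than in M2-3, 16 of 16, but by less, with a median difference of -0.77 and a range of -1.65 to -0.07. Of all genes, 54.0% lay below M2-3 in NHRI-HN2. In 7 enzymes the gap was at least 1 unit, against 5.69% of all genes.

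**Figure D1:**
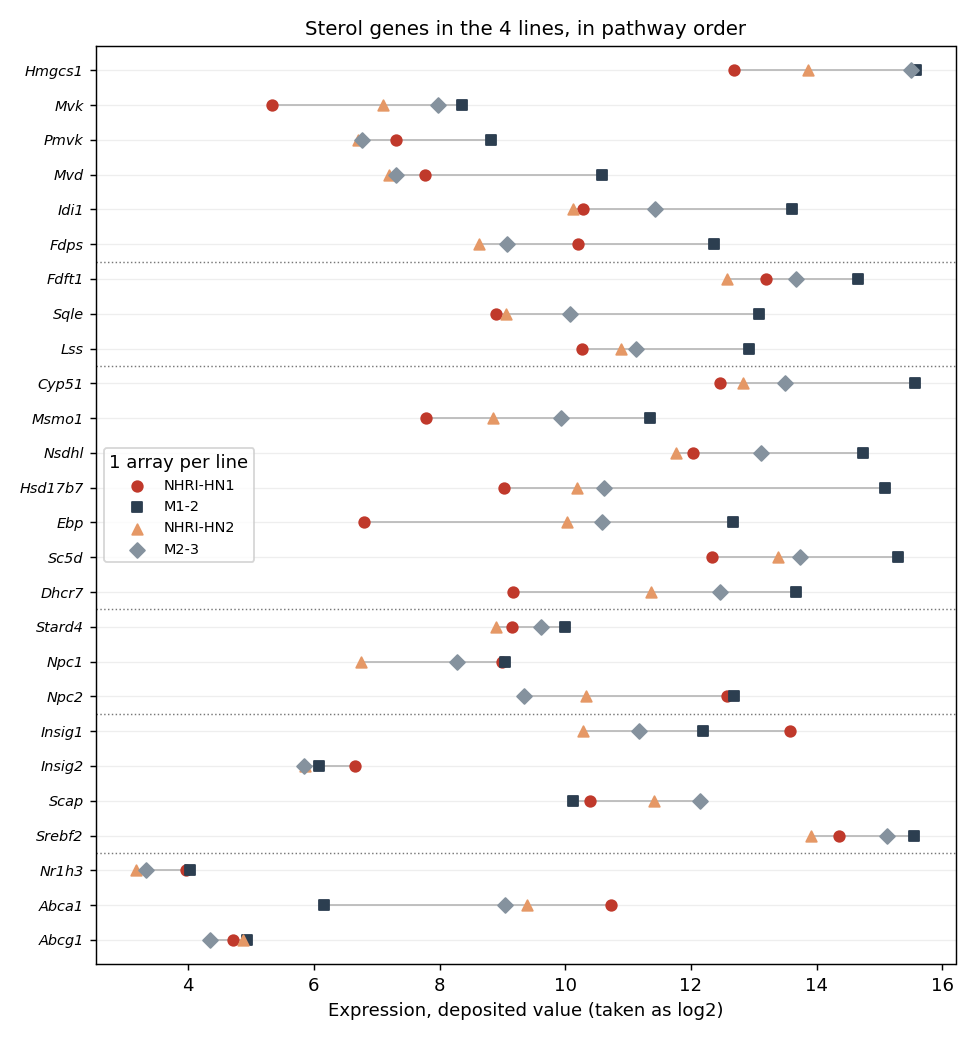
Levels of the 26 measured sterol genes in pathway order, 1 marker per array, on the deposited scale (taken as log2); dotted lines part the mevalonate, squalene to lanosterol, lanosterol to cholesterol, transport, SREBP control and LXR groups. The M1-2 square lies farthest right in all 16 enzyme rows, against 25.8% of all genes. It does so in 6 of the 10 rows below Dhcr7, which have no common order.

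In the mevalonate pathway, 6 enzymes were measured. Hmgcs1, which condenses acetyl-CoA and acetoacetyl-CoA to HMG-CoA, read 12.68 in NHRI-HN1 against 15.59 in M1-2, and 13.86 in NHRI-HN2 against 15.51 in M2-3. Both parents stood above both sphere-cultured lines, and the parents lay within 0.08 of each other. Mvk, the kinase that phosphorylates mevalonate, read 5.34 in NHRI-HN1 against 8.36 in M1-2, and 7.10 in NHRI-HN2 against 7.97 in M2-3. Its order was that of Hmgcs1. Idi1, which isomerizes isopentenyl diphosphate, read 10.29 in NHRI-HN1 against 13.61 in M1-2, and 10.12 in NHRI-HN2 against 11.43 in M2-3. Here the 2 sphere-cultured lines lay close together, and M1-2 exceeded M2-3 by 2.18.

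The remaining 3 enzymes of this stretch set M1-2 apart from the other lines. Pmvk, the kinase after Mvk, read 7.31 in NHRI-HN1 against 8.82 in M1-2, and 6.70 in NHRI-HN2 against 6.77 in M2-3. Mvd, which decarboxylates mevalonate diphosphate, read 7.76 in NHRI-HN1 against 10.58 in M1-2, and 7.19 in NHRI-HN2 against 7.30 in M2-3. Fdps, the synthase of farnesyl diphosphate, read 10.21 in NHRI-HN1 against 12.36 in M1-2, and 8.62 in NHRI-HN2 against 9.08 in M2-3. In these 3 genes NHRI-HN1 lay above M2-3, and NHRI-HN2 minus M2-3 was between -0.46 and -0.07. The median difference of the 6 enzymes was -2.87 in the first pair of lines.

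From farnesyl diphosphate to lanosterol, all 3 enzymes had both parents above both sphere-cultured lines. Fdft1, squalene synthase, read 13.20 in NHRI-HN1 against 14.66 in M1-2, and 12.57 in NHRI-HN2 against 13.67 in M2-3. It had the smallest difference of the 16 enzymes in the first pair, -1.46, and -1.10 in the second. Sqle, the squalene epoxidase and a rate-controlling enzyme of the pathway, read 8.90 in NHRI-HN1 against 13.08 in M1-2, and 9.06 in NHRI-HN2 against 10.07 in M2-3. Its M1-2 level stood 3.01 above the next line. Lss, which cyclizes squalene epoxide to lanosterol, read 10.26 in NHRI-HN1 against 12.92 in M1-2, and 10.88 in NHRI-HN2 against 11.13 in M2-3.

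The 7 measured enzymes between lanosterol and cholesterol had the lowest median of the 3 stretches in the first pair, -3.56, with no test between stretches. Cyp51, the lanosterol demethylase, read 12.47 in NHRI-HN1 against 15.57 in M1-2, and 12.83 in NHRI-HN2 against 13.49 in M2-3. Msmo1, the methylsterol monooxygenase that acts after it, read 7.79 in NHRI-HN1 against 11.35 in M1-2, and 8.85 in NHRI-HN2 against 9.94 in M2-3. Nsdhl, the sterol dehydrogenase that works with Msmo1, read 12.03 in NHRI-HN1 against 14.74 in M1-2, and 11.77 in NHRI-HN2 against 13.12 in M2-3. Each of the 3 had M1-2 highest and M2-3 next.

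Hsd17b7, the reductase that completes the removal of a methyl group from the sterol ring, had the largest difference of all enzymes in the first pair. It read 9.03 in NHRI-HN1 against 15.09 in M1-2, and 10.18 in NHRI-HN2 against 10.62 in M2-3, which makes -6.06 in the first pair and -0.44 in the second. M1-2 stood 4.47 above the next line. Ebp, the sterol isomerase, read 6.80 in NHRI-HN1 against 12.67 in M1-2, and 10.03 in NHRI-HN2 against 10.58 in M2-3. For Ebp NHRI-HN1 also stood apart, with NHRI-HN1 minus NHRI-HN2, the next line up, at -3.23.

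Sc5d, a sterol desaturase, read 12.34 in NHRI-HN1 against 15.29 in M1-2, and 13.38 in NHRI-HN2 against 13.73 in M2-3. Dhcr7, the reductase of the last step, read 9.17 in NHRI-HN1 against 13.68 in M1-2, and 11.36 in NHRI-HN2 against 12.46 in M2-3. In both genes the 4 lines followed 1 order, M1-2 highest, then M2-3, NHRI-HN2 and NHRI-HN1. M1-2 was highest and NHRI-HN1 lowest in 10 of the 16 enzymes, as in 7.54% of all genes.

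Across the pathway M1-2 was the highest of the 4 lines in 16 of 16 enzymes, as it was in 25.8% of all genes. In 13 enzymes it was highest by at least 1 unit, a gap seen in 4.34% of all genes. M1-2 exceeded the other parent, M2-3, by a median of 1.92, and by at least 1 unit in 13 enzymes, against 13.7% of all genes. This difference between parents uses the same M1-2 array as the difference from NHRI-HN1. NHRI-HN1 was the lowest line in 10 enzymes, against 27.2% of all genes, and NHRI-HN2 in the remaining 6, against 22.7%. Between the sphere-cultured lines the median difference, NHRI-HN1 minus NHRI-HN2, was -0.49, with 7 enzymes at least 1 unit lower in NHRI-HN1 and 1, Fdps, at least 1 unit higher. Of all genes, 16.3% were at least 1 unit lower and 13.6% at least 1 unit higher between these lines.

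The 2 pairs of sphere-cultured and parental lines share no array. Both sphere-cultured lines lay below their own parent in 16 of 16 enzymes. That pattern was found in 26.9% of all genes and in 28.3% of genes with a mean of at least 5. As SREBP2 drives these genes together, the 16 are not independent observations. In 13 enzymes both parents lay above both sphere-cultured lines, against 13.1% of all genes, the exceptions being Pmvk, Mvd and Fdps. The same 13 had the order M1-2, M2-3, then both sphere-cultured lines, which 7.07% of all genes had. A sphere-cultured line at least 1 unit below its parent in each pair was found in 7 enzymes, against 1.16% of all genes. These were Hmgcs1, Idi1, Fdft1, Sqle, Msmo1, Nsdhl and Dhcr7. The difference was larger in the NHRI-HN1 pair for each of the 16.

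**Figure D2:**
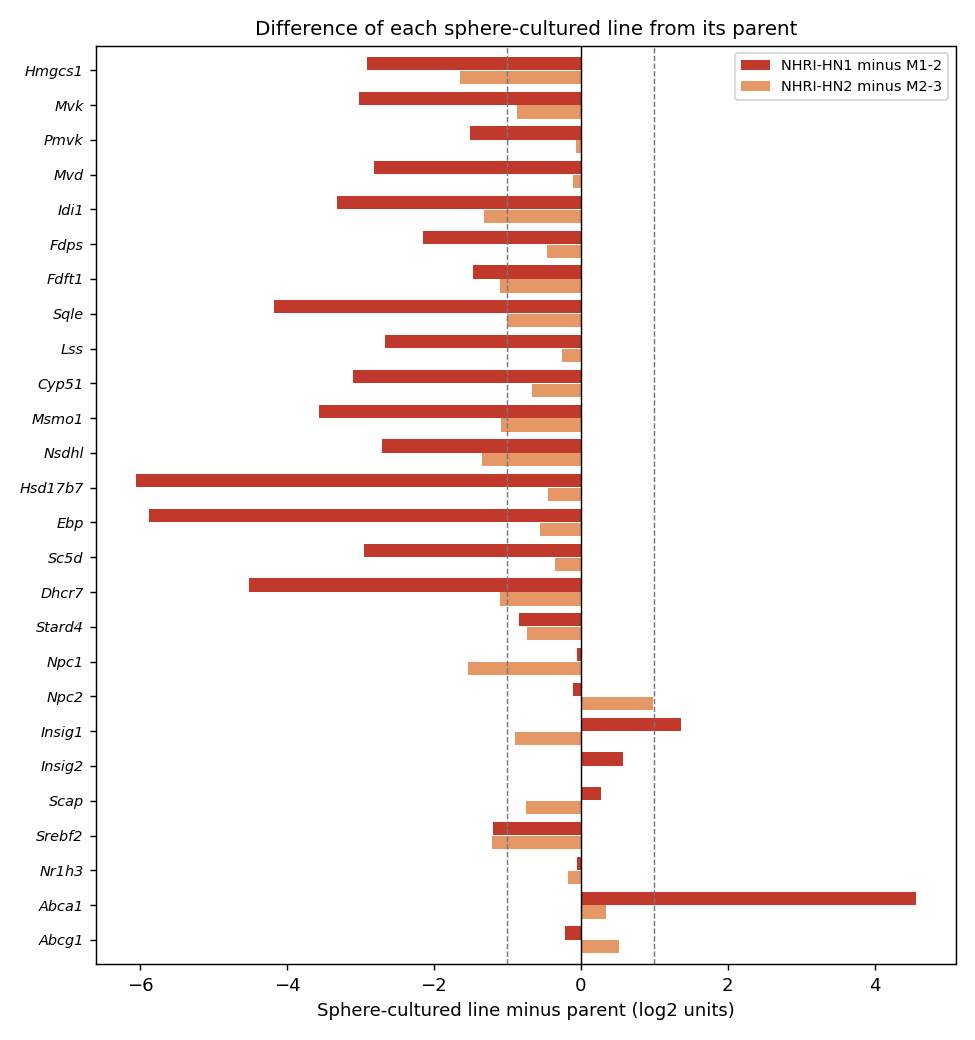
Difference of each sphere-cultured line from its own parent for the 26 measured genes, in log2 units, 1 array per line; dashed lines mark 1 unit. All 16 enzymes from Hmgcs1 to Dhcr7 extend left of 0 in both pairs, and Abca1 extends farthest right, at 4.57, in the NHRI-HN1 pair.

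**Figure D3:**
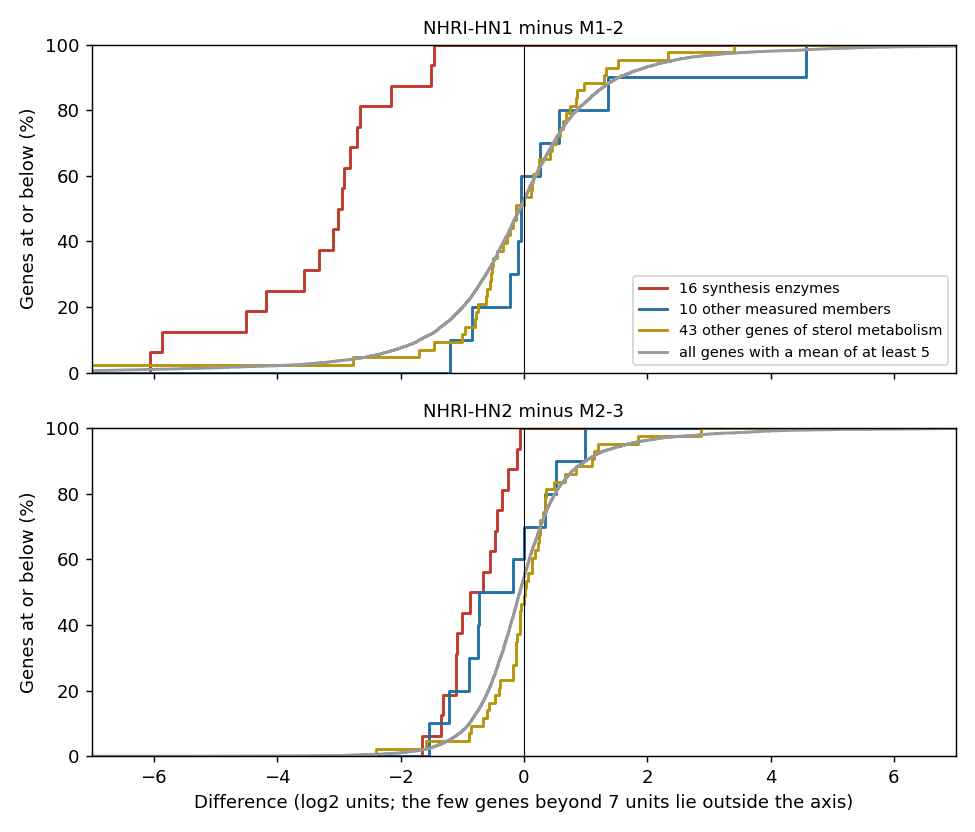
Percentage of genes at or below each difference, in log2 units, for the 16 synthesis enzymes, the 10 other measured members, 43 other genes of sterol metabolism and all genes with a mean of at least 5; upper panel NHRI-HN1 minus M1-2, lower panel NHRI-HN2 minus M2-3. The enzyme curve reaches 100% below 0 in both panels, whereas the curves of the 10 other members and the 43 other genes run near that of all genes in the upper panel.

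Markers of cell type moved with the lines as well. Keratinocyte genes, 11 of 12 measured, had a median level of 3.71 in NHRI-HN1 (2.48 to 5.15) against 13.53 in M1-2 (3.72 to 15.38), and 15.07 in NHRI-HN2 (13.55 to 17.7) against 16.1 in M2-3 (14.22 to 18.76). No keratinocyte marker thus read above 5.15 in NHRI-HN1, and 10 of 11 were lower in each sphere-cultured line than in its parent. M2-3 was highest in 11 of 11 of them, whereas M1-2 was highest in 16 of 16 enzymes. Skeletal muscle genes, all 10 measured, had a median of 11.34 in NHRI-HN1, 4.16 in M1-2, 3.36 in NHRI-HN2 and 2.99 in M2-3. Myod1, at 3.32 in NHRI-HN1, was the 1 muscle gene within 1 unit of M1-2. Fibroblast genes, 7 of 8 measured, had medians of 8.48 in NHRI-HN1, 6.89 in M1-2, 4.59 in NHRI-HN2 and 2.97 in M2-3. Gene by gene they were mixed in the first pair, with 4 higher and 3 lower in NHRI-HN1 and a median difference of 0.25. Col3a1 differed by 9.66 and Col1a1 by -3.18. The medians of 7 macrophage genes lay between 3.27 and 3.69, though Cd14 read 8.13 in M1-2. The part of these shifts in the enzyme levels was not tested.

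The enzymes share promoter letters that the choice of genes did not use. RefSeq promoter windows (GRCm38.p6, 250 bases before to 50 after the start) were found for 20 of the 26 members, 13 of them enzymes, and both strands were searched for 3 motifs. CCAAT, the letters bound by the factor NF-Y that often partners SREBP2, stood in at least 1 window of 13 of 13 enzymes, against 42.2% of 15691 array genes with a window, and in 4 of 7 other members. GGGCGG, the GC box, stood in 12 of 13 enzymes and 6 of 7 other members, against 51.2% of array genes. The letters TCACNCCAC, those of a sterol regulatory element, stood in 1 of 13 enzymes, Hmgcs1, beginning 137 bases before the start. They stood in 0 of 7 other members, and in 1.43% of array genes. The windows of 4 enzymes with large differences are shown for their CCAAT letters, with Hmgcs1 included for its sterol element. They lie at chr13:119690101-119690400 on the plus strand for Hmgcs1, chr1:169969156-169969455 on the minus strand for Hsd17b7, chrX:8193463-8193762 on the minus strand for Ebp, and chr7:143829964-143830263 on the plus strand for Dhcr7, the one of its 3 windows with most matches. Each is printed from 5′ to 3′ along the gene, and capitals mark the sterol element and the CCAAT letters. The latter read as their reverse complement, ATTGG, where they lie on the other strand.
Hmgcs1: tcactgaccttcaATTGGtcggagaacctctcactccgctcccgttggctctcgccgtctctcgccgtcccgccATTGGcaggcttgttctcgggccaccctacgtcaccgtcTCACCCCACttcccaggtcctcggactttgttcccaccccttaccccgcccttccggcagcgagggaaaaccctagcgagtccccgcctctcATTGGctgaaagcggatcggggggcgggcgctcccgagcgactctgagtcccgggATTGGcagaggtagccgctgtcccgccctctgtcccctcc
Hsd17b7: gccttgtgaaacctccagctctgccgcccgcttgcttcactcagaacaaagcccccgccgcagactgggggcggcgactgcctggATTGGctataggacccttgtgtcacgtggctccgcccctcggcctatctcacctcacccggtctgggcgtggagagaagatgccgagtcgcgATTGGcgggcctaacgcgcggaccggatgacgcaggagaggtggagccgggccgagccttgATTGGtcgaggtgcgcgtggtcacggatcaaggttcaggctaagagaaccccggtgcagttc
Ebp: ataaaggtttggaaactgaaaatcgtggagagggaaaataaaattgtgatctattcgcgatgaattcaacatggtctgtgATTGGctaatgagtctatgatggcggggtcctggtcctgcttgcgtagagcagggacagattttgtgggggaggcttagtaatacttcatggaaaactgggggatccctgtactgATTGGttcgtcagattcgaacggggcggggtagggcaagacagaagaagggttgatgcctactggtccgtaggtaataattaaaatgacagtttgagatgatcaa
Dhcr7: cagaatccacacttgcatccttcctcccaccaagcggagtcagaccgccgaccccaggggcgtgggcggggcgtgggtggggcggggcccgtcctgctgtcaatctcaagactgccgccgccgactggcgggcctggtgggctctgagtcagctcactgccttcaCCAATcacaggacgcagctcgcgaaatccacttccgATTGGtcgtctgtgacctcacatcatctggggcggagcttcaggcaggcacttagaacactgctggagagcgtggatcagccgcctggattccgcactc
Hmgcs1 held CCAAT letters 4 times, Hsd17b7 3 times, and Ebp and Dhcr7 2 times each. A match is a string of letters and not a measured binding site, and the lack of a match to these letters does not show that a gene has no sterol element.

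Fits across all 19505 genes with limma called no member in any comparison. NHRI-HN1 against the mean of the other 3 lines takes its error from the spread of those lines, and called 121 genes (0.62%) at an adjusted p under 0.05. The enzymes had a median difference of -1.64 there, which was -0.72 without M1-2, and 12 of 16 were at least 1 unit lower, against 13.7% of all genes, or 7 of 16 without M1-2. Ebp differed by -4.29 (SE 1.18, limma adjusted p = 0.364) and Dhcr7 by -3.33 (SE 1.01, adjusted p = 0.419). With Mvk and Hmgcs1 these were the 4 enzymes lower at an unadjusted p under 0.05, against 3.42% of all genes, and Insig1 was the 1 member higher, against 5.88% of all genes, by 2.35 (SE 0.89, limma adjusted p = 0.524). These 5 members at an unadjusted p under 0.05 became 10 without M1-2, 2 without M2-3 and 3 without NHRI-HN2. Fdps was the 1 enzyme above 0 in this comparison, at 0.19. Without M1-2 the error comes only from NHRI-HN2 and M2-3, a line and its own parent. The larger number of members at that level without M1-2 thus came with a smaller enzyme difference and is not stronger evidence.

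NHRI-HN1 minus M1-2, with tumor of origin as a block, takes its error from the single difference between NHRI-HN2 and M2-3, and 0.0% of all genes were called, with 2708 at an unadjusted p under 0.05. At that unadjusted level 14 of 16 enzymes were lower, all but Pmvk and Fdft1, against 6.73% of all genes. Hsd17b7 had the smallest adjusted p of the members, at -6.06 (SE 0.51, limma adjusted p = 0.0524), followed by Ebp at -5.87 (SE 0.56, limma adjusted p = 0.0572). Both passed after quantile normalization, Hsd17b7 with an adjusted p of 0.0427 and Ebp with 0.0481 by limma, when 188 genes were called in all. This error term holds any shift that the second pair shares with the first.

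Sphere-cultured lines minus parents, over both pairs, had a median of -1.99 for the enzymes, with 15 of 16 at least 1 unit lower, against 5.96% of all genes. No gene was called (0.0%), 697 had an unadjusted p under 0.05, and the smallest adjusted p of all genes was 0.986 by limma at 1 residual degree of freedom. At an unadjusted p under 0.05, 6 enzymes were lower, against 1.5% of all genes. They were Hmgcs1, Idi1, Sqle, Msmo1, Nsdhl and Dhcr7, of which Hmgcs1 had the smallest unadjusted p, at -2.28 (SE 0.56, limma adjusted p = 0.986).

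The carriers of sterols inside the cell shared 1 trait with the enzymes and not another. M1-2 was highest in 3 of 3, against 25.8% of all genes, though by no more than 0.10 for Npc1 and Npc2. In the first pair 0 of 3 were at least 1 unit lower in NHRI-HN1, against 12.2% of all genes. So few genes cannot be set apart by such counts. Npc1, the lysosomal membrane protein that exports cholesterol, read 8.99 in NHRI-HN1 against 9.04 in M1-2, and 6.75 in NHRI-HN2 against 8.28 in M2-3. Npc2, its soluble partner, read 12.58 in NHRI-HN1 against 12.68 in M1-2, and 10.33 in NHRI-HN2 against 9.34 in M2-3. The first pair differed by -0.05 for Npc1 and -0.10 for Npc2, and Npc2 separated the tumors, with M1-2 above M2-3 by 3.34. Stard4, a sterol carrier and a target of SREBP2, read 9.15 in NHRI-HN1 against 9.99 in M1-2, and 8.89 in NHRI-HN2 against 9.62 in M2-3. Both parents lay above both sphere-cultured lines, as in 13 of the 16 enzymes, over a range of 1.10.

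Among the genes that control SREBP, Srebf2 and Insig1 took different courses. Srebf2, which encodes SREBP2, read 14.36 in NHRI-HN1 against 15.55 in M1-2, and 13.91 in NHRI-HN2 against 15.12 in M2-3. Its difference was near equal in the pairs, -1.19 and -1.21, and both parents lay above both sphere-cultured lines. Insig1, which retains SCAP in the endoplasmic reticulum and is itself a target of SREBP, read 13.57 in NHRI-HN1 against 12.20 in M1-2, and 10.28 in NHRI-HN2 against 11.17 in M2-3. It was highest in NHRI-HN1, the line lowest in 10 of the enzymes, and its differences had opposite signs, 1.37 and -0.89. The difference between those pairs was not tested.

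Insig2, the second INSIG, read 6.65 in NHRI-HN1 against 6.08 in M1-2, and 5.85 in NHRI-HN2 against 5.84 in M2-3. It spanned 0.81 over the 4 lines. Scap, the sterol sensor that escorts SREBP2, read 10.40 in NHRI-HN1 against 10.13 in M1-2, and 11.41 in NHRI-HN2 against 12.15 in M2-3. Scap ran opposite to the enzymes between the parents, with M1-2 minus M2-3 at -2.02.

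Of the LXR and efflux genes, Abca1, the pump that loads cholesterol onto apolipoprotein A-I, read 10.73 in NHRI-HN1 against 6.16 in M1-2, and 9.39 in NHRI-HN2 against 9.04 in M2-3. M1-2 was the low line, with M1-2 minus M2-3 at -2.88, and the difference in the first pair was the largest positive one among the members. In the fit with tumor of origin as a block it differed by 4.57 (SE 0.55, limma adjusted p = 0.0737), and it was the 1 member higher there at an unadjusted p under 0.05, against 7.16% of all genes. Nr1h3, which encodes LXR alpha, read 3.97 in NHRI-HN1 against 4.02 in M1-2, and 3.16 in NHRI-HN2 against 3.33 in M2-3. Abcg1, another cholesterol exporter, read 4.71 in NHRI-HN1 against 4.93 in M1-2, and 4.87 in NHRI-HN2 against 4.35 in M2-3. Both lie in the lower range of the arrays, where no detection call accompanied the values.

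Other genes of sterol metabolism, 43 of which were measured, did not share the enzymes' pattern as a set. Their median difference was -0.13 in the NHRI-HN1 pair and 0.02 in the NHRI-HN2 pair. In the NHRI-HN1 pair 5 (11.6%) were at least 1 unit lower and 5 at least 1 unit higher, near the 12.2% and 12.1% of all genes. None was called by limma, as against 0.62% of all genes versus the other lines and 0.0% in the other fits. None had M1-2 highest, M2-3 next and both sphere-cultured lines below, an order that 7.07% of all genes had. Each sphere-cultured line lay below its own parent in 12 of the 43 (27.9%), near the 26.9% of all genes. Ggps1, the branch enzyme that takes farnesyl diphosphate to geranylgeranyl diphosphate, ranged only between 10.79 and 10.98. Acat1, the mitochondrial thiolase, read 12.23 in NHRI-HN1 against 10.93 in M1-2, and 11.91 in NHRI-HN2 against 12.77 in M2-3. Among 7 genes of SREBP processing and sterol-regulated degradation, no difference in the first pair reached 1 unit. That size was reached by 12.2% of all genes downward and 12.1% upward, so 7 genes are too few to set these apart. Each sphere-cultured line lay below its own parent in 5 of the 7, against 26.9% of all genes, and by less than 1 unit in each pair.

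Cyp7b1, the hydroxylase that clears oxysterols, had the largest difference of these genes, at 4.63 in NHRI-HN1 against 13.63 in M1-2, and 10.10 in NHRI-HN2 against 8.89 in M2-3. The pairs ran in opposite directions. Ch25h, which makes the oxysterol 25-hydroxycholesterol, read 5.15 in NHRI-HN1 against 2.81 in M1-2, and 5.98 in NHRI-HN2 against 3.11 in M2-3. It was higher in both sphere-cultured lines than in both parents. The parent values lie near the lower quartiles of their arrays, 3.13 in M1-2 and 3.06 in M2-3, and no detection call accompanied them. Of the 10 measured genes of fatty acid synthesis and desaturation, which SREBP proteins also govern, the median difference was -0.41 in the first pair and -0.04 in the second. M1-2 was the highest line in 4 of 10, against 25.8% of all genes. Between the parents, 4 of 10 were at least 1 unit higher in M1-2 than in M2-3, against 13.7% of all genes. In the other direction 1 of 10 was at least 1 unit lower, against 17.0%. Acly, the citrate lyase that supplies cytosolic acetyl-CoA, read 11.76 in NHRI-HN1 against 13.44 in M1-2, and 12.08 in NHRI-HN2 against 11.99 in M2-3. Acss2, the acetyl-CoA synthetase, read 5.74 in NHRI-HN1 against 7.72 in M1-2, and 5.56 in NHRI-HN2 against 4.65 in M2-3. These were the 2 of 10 at least 1 unit lower in NHRI-HN1 than in M1-2, a share not far from the 12.2% of all genes and 19.9% of genes with a mean of at least 5. Neither was lower in NHRI-HN2 than in M2-3. The 1 gene at least 1 unit higher was Fads1, a fatty acid desaturase, at 13.30 in NHRI-HN1 against 12.21 in M1-2, and 12.92 in NHRI-HN2 against 12.34 in M2-3.

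**Figure D4:**
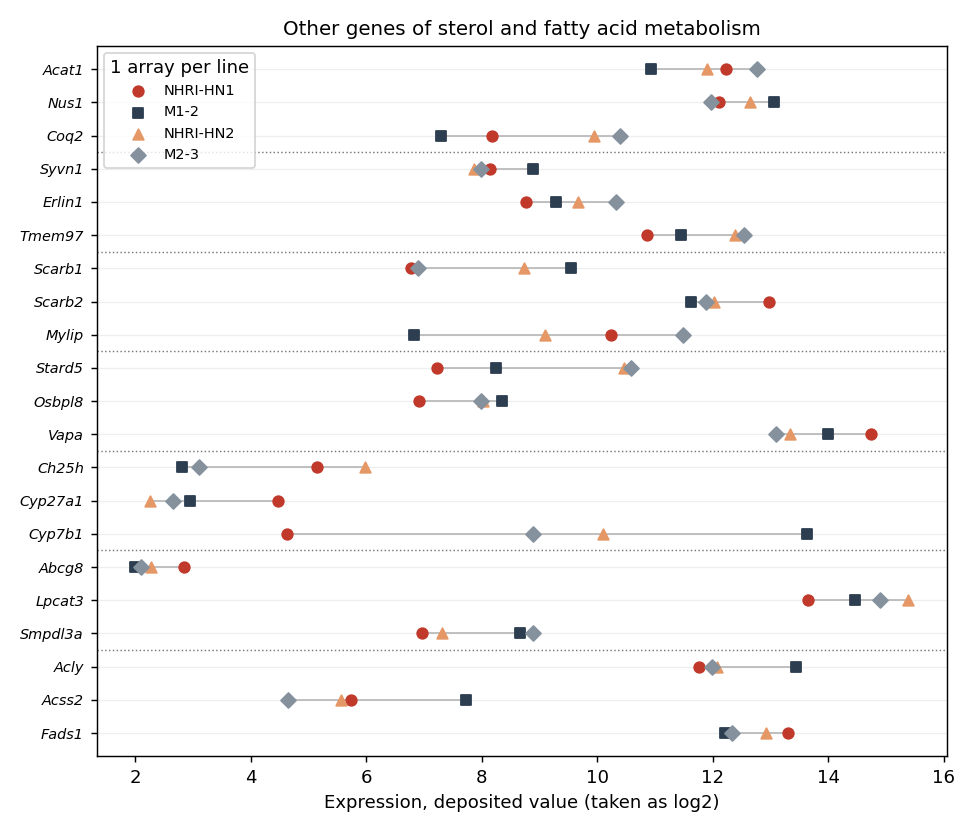
Levels of 21 other genes of sterol and fatty acid metabolism, up to 3 per list with the largest NHRI-HN1 minus M1-2 difference, 1 marker per array, on the deposited scale (taken as log2). Cyp7b1 spans the widest range, 4.63 in NHRI-HN1 to 13.63 in M1-2. No row has the order M1-2, M2-3, then both sphere-cultured lines, which 7.07% of all genes had.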

How the data were processed

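Total RNA of the 4 lines was hybridized to Affymetrix Mouse Clariom S arrays. The submitters' processing notes name Partek 7, and the table holds 22206 probe sets with 1 value per array. The values the authors deposited are taken as log2 (range 1.48 to 19.77). Their log base, background correction and normalization were not stated in the sources used here. Through the platform annotation 19572 probe sets had 1 gene symbol and 2634 were unnamed here. Probe sets of the same gene (55 genes) were averaged, giving 19505 genes.

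The 3 comparisons were fitted with limma 3.58.1 in R 4.3.3 (lmFit, eBayes with intensity trend, Benjamini-Hochberg over all genes, threshold 0.05): NHRI-HN1 against the other lines, and, with tumor of origin as a block, NHRI-HN1 minus M1-2 and sphere-cultured lines minus parents. They have 2, 1 and 1 residual degrees of freedom. The p-values rest on differences between lines, which are not independent, and not on replicate cultures. The number of arrays limits the precision. The fitting script was tested on simulated data. Alternatives were quantile normalization, no intensity trend, a mean of at least 5, the brightest probe set, leaving out each line and, added after seeing the data, no block.

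Members and gene lists were chosen with earlier results of these data known. All measured members are named. Of the other lists, genes called in a fit and up to 3 per list with the largest absolute NHRI-HN1 minus M1-2 difference were eligible, and Ggps1 was named after its values were seen. Promoter windows and motifs came from RefSeq (GRCm38.p6).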

Additional observations from a re-analysis of the deposited data

Results flagged for a closer look

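In 3 of the 43 other genes of sterol metabolism, the sphere-cultured line and its parent differed by at least 1 unit in both tumors but in opposite directions, as in 2.66% of all genes. Cyp7b1, the oxysterol hydroxylase, was lower in NHRI-HN1 than in M1-2 (-9.00) and higher in NHRI-HN2 than in M2-3 (1.21). Mylip, the ligase that marks the LDL receptor for degradation, was higher in NHRI-HN1 than in M1-2 (3.41) and lower in NHRI-HN2 than in M2-3 (-2.40). Scarb1, a receptor for high-density lipoprotein, was lower in NHRI-HN1 than in M1-2 (-2.77) and higher in NHRI-HN2 than in M2-3 (1.85). With 1 array per line, the difference between the pairs was not tested. Among the cell type markers, the collagen gene Col1a1 also differed in this way (-3.18 in the first pair and 6.43 in the second). No enzyme of the synthesis pathway had opposite signs in the 2 pairs.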

How the results depend on the processing

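No synthesis enzyme changed sign in either pair, and the counts of 16 enzymes below their own parent in both pairs, 16 highest in M1-2 and 13 with both parents above both sphere-cultured lines were the same after quantile normalization. Members called stayed at 0 against the other lines under all 7 alternatives and for sphere-cultured lines minus parents under all 5. For NHRI-HN1 minus M1-2, quantile normalization called 188 genes, 2 of them members, against 0 for the deposited values, and the cause was not tested.

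The 121 genes called against the other lines depended on the setting. The count was 0 without an intensity trend (1947 at an unadjusted p under 0.05) and 0 for genes with a mean of at least 5 (981 unadjusted), and leaving out 1 line gave 0 to 707. The 707 came without M1-2, and 0 came without M2-3 or NHRI-HN2. With M1-2 left out, the error rests on NHRI-HN2 and M2-3 alone, a line and its own parent. In the same comparison, leaving out M1-2 turned Pmvk (-0.12, range -0.48 to 0.58), Mvd (-0.60, range -1.18 to 0.52) and Fdft1 (-0.43, range -0.96 to 0.08) positive. Fdps (0.19, range -0.51 to 1.36) was negative without M2-3 or NHRI-HN2, and Abcg1 (-0.01, range -0.19 to 0.10) was positive without M1-2 or NHRI-HN2. The enzyme median ranged from -2.20 to -0.72, with -0.72 without M1-2, and 7 to 13 enzymes were at least 1 unit lower, with 7 without M1-2. Fits with the block had no residual degrees of freedom left without a line. Without the block, which pairs each sphere-cultured line with its parent, sphere-cultured lines minus parents still had no call, and 4 members in place of 6 had an unadjusted p under 0.05.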

Other observations

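Sterol transfer proteins, 11 of which were measured, had a median difference of -0.50 between NHRI-HN1 and M1-2 and of 0.25 between NHRI-HN2 and M2-3. Stard5, a sterol carrier, separated the tumors, at 7.23 in NHRI-HN1 against 8.24 in M1-2, and 10.46 in NHRI-HN2 against 10.58 in M2-3. Osbpl8, an oxysterol-binding protein of the endoplasmic reticulum, read 6.91 in NHRI-HN1 against 8.36 in M1-2, and 8.02 in NHRI-HN2 against 7.98 in M2-3. Vapa, the membrane anchor of several such proteins, read 14.74 in NHRI-HN1 against 13.99 in M1-2, and 13.34 in NHRI-HN2 against 13.09 in M2-3.

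The 7 other measured LXR targets and efflux genes, 5 of them with a mean below 5, had a median difference of 0.11 in the first pair. None was at least 1 unit higher, against 12.1% of all genes, which is too few genes to set them apart. Smpdl3a, a phosphodiesterase that LXR induces, was lower in both sphere-cultured lines than in both parents, at 6.96 in NHRI-HN1 against 8.66 in M1-2, and 7.31 in NHRI-HN2 against 8.89 in M2-3. Lpcat3, the phospholipid acyltransferase, read 13.66 in NHRI-HN1 against 14.46 in M1-2, and 15.39 in NHRI-HN2 against 14.90 in M2-3.

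Of 6 measured genes of uptake and lysosomal release, 5 were higher in NHRI-HN1 than in M1-2, the exception being Scarb1, against 49.6% of all genes, and 5 were higher in NHRI-HN2 than in M2-3, the exception being Mylip, against 45.2%. Only 2 of the 5 in the first pair, Mylip (3.41) and Scarb2 (1.34), were higher by at least 1 unit. In the second pair only 1 of the 5 was, Scarb1 (1.85). Mylip marks the LDL receptor for degradation and so works against uptake, and the counts give no direction for uptake. Scarb2, a lysosomal membrane protein, read 12.97 in NHRI-HN1 against 11.63 in M1-2, and 12.02 in NHRI-HN2 against 11.89 in M2-3. Cyp27a1, another oxysterol-forming enzyme, read 4.47 in NHRI-HN1 against 2.95 in M1-2, and 2.26 in NHRI-HN2 against 2.65 in M2-3. Outside NHRI-HN1 these values lie below the lower quartile of their arrays, and no detection call accompanied them.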
